A study of Saccharomyces cerevisiae with 28 samples.

Results

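The mating-type genes of Saccharomyces cerevisiae were examined in RNA sequencing (RNA-seq) data of 8 strains. The 6 genes that the annotation places at the mating-type locus MAT and at the silent cassettes HML and HMR were taken by their systematic names: HMLALPHA1 (YCL066W) and HMLALPHA2 (YCL067C) at HML, MATALPHA1 (YCR040W) and MATALPHA2 (YCR039C) at MAT, and HMRA1 (YCR097W) and HMRA2 (YCR096C) at HMR. They were 6 of 7125 genes in the deposited table, and all 6 had a value in every library. Each value was an RPKM, that is, reads per kilobase of gene and per 1000000 reads of the library.

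The strains were acs2-ts, a temperature-sensitive mutant of the acetyl-CoA synthetase gene ACS2, and its wild type (WT); pyk1, a mutant of the pyruvate kinase gene, and its own wild type, WT (pyk1); and the mutants sam1 (S-adenosylmethionine synthetase), ser33 (3-phosphoglycerate dehydrogenase) and shm2 (serine hydroxymethyltransferase), which were set against BY4741, a common laboratory strain. These enzymes belong to the SESAME complex, which joins metabolic enzymes with the modification of chromatin. The labels do not name the strain from which sam1, ser33 and shm2 derive, so that BY4741 is taken here as their wild type and their fold changes rest on that. The labels also give neither the mating type of any strain, nor the allele of pyk1, nor the growth temperature. All strains were grown in YPD, a rich glucose medium, and collected at an OD600 of 0.7 to 1.0. Each strain had 2 cultures. Every culture of 6 strains had 2 libraries, labelled as technical replicates. The cultures of pyk1 and WT (pyk1) had 1 library each, which gave 28 libraries from 16 cultures.

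Haploid yeast is of type a or type alpha according to the cassette present at MAT. An alpha cassette encodes alpha1, which activates alpha-specific genes, and alpha2, which represses a-specific genes. An a cassette encodes a1, which acts only together with alpha2 in diploids to repress haploid-specific genes, and a2, for which no function in mating is known. HML and HMR hold unexpressed copies of the alpha and a cassettes, kept silent by the Sir proteins, and serve as donors when MAT is switched. The reference genome, R64, comes from an alpha strain. It therefore holds the alpha cassette at HML and at MAT and the a cassette only at HMR, so that RNA made from an a cassette at MAT is counted under the names HMRA1 and HMRA2. BY4741 is known as an a strain.

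The 3 loci lie on chromosome III (R64). HMLALPHA2 is at chrIII:12386-13018 on the minus strand and HMLALPHA1 at chrIII:13282-13809 on the plus strand. MATALPHA2 is at chrIII:199546-200178 (minus) and MATALPHA1 at chrIII:200442-200969 (plus). HMRA2 is at chrIII:293179-293538 (minus) and HMRA1 at chrIII:293835-294321 (plus). Within a cassette the gene pair is transcribed away from a common promoter. All 6 are protein-coding, and HMRA1 alone has introns: its 3 exons hold 381 bases.

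The copies share sequence, which sets what each value can mean. HMLALPHA1 and MATALPHA1 were identical over 528 bases, and HMLALPHA2 and MATALPHA2 were identical over 633 bases. HMRA2 matched the last 360 bases of the alpha2 genes with 0 mismatches, and 558 of the 633 bases of alpha2 (88.2%) were also present at HMR. Of alpha1, 108 of 528 bases (20.5%) matched HMR, in a stretch that starts 68 bases past the stop codon of HMRA1. HMRA1 shared 0 bases with HML or MAT. Every window of 36, 50, 75 or 100 bases within the 5 other genes also occurred elsewhere in the genome, whereas 0% of the HMRA1 windows did. HMRA1 was thus the only one of the 6 whose reads could be placed at 1 position in R64, and its exons cannot tell an a cassette at MAT from the one at HMR.

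The sequences at the edges of the shared stretches are shown because they separate what is common to all 3 loci from what is specific to the alpha or a cassette. Capitals mark bases shared by HML, MAT and HMR. The first 3 lie within the alpha2 genes and, at HMR, upstream of HMRA2, and are written along the minus strand (HML chrIII:12929-12958, MAT chrIII:200089-200118, HMR chrIII:293722-293751):
HML: agcatactagacataAATAAAAAGCTCTTT
MAT: agcatactagacataAATAAAAAGCTCTTT
HMR: agaacaaaaatcaagAATAAAAAGCTCTTT

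The next 3 are the edges on the other side, within alpha1 or downstream of HMRA1, along the plus strand (HML chrIII:13687-13716, MAT chrIII:200847-200876, HMR chrIII:294375-294404):
HML: ttcgcgcaacagtatAATTTTATAAACCCT
MAT: ttcgcgcaacagtatAATTTTATAAACCCT
HMR: tttccgcaacagtaaAATTTTATAAACCCT

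Reads from an alpha2 message can be told from an a2 message only in the first 75 bases of the alpha2 coding sequence, shown here for MAT (chrIII:200104-200178, minus strand) with the start codon in capitals. Reads of a1 can be told from all alpha genes, and the first exon of HMRA1 (chrIII:293835-293939, plus strand) is shown in the same way:
MATALPHA2: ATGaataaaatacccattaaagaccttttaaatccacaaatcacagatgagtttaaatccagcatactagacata
HMRA1: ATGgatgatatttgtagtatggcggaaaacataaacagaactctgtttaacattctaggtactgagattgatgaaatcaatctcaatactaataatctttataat

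The deposited RPKM fell on whole reads once multiplied by gene length and library size, which gave the number of reads behind every value. By this recovery, libraries held about 4330000 to 36520000 reads, with a median of 14920000. The mutated genes were checked first: SAM1 was at 0.06 to 0.362 RPKM in sam1 and 28.9 to 99.3 RPKM in BY4741, SER33 at 0 to 0.656 RPKM in ser33 and 28.1 to 36.2 RPKM in BY4741, and SHM2 at 0.089 to 0.276 RPKM in shm2 and 110.5 to 350.0 RPKM in BY4741. ACS2 was at 500 to 579 RPKM in acs2-ts and 205 to 258 RPKM in WT, and CDC19, which encodes Pyk1, at 3896 to 4147 RPKM in pyk1 and 3162 to 4073 RPKM in WT (pyk1), so that these RNA levels do not check the labels of acs2-ts and pyk1.

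All 8 strains showed the pattern of a cells. Reads of alpha1, the activator of alpha-specific genes, were close to absent. HMLALPHA1 and MATALPHA1 together took 152 reads in 28 libraries, at most 6 and 8 in any library, and were at 0 in 5 and 3 libraries. HMRA1 took 88 to 1909 reads per library, 18731 in all.

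In reads per 1000000 library reads (RPM), alpha1 was at 0.078 RPM in acs2-ts (exact Poisson 95% interval 0.025 to 0.183) and 0.408 in WT (0.261 to 0.607). It was at 0.371 in pyk1 and 0.816 in WT (pyk1), at 0.529, 0.357 and 0.397 in sam1, ser33 and shm2, and at 0.168 in BY4741 (0.092 to 0.283). The intervals cover counting error only. HMRA1 had 77 to 226 times as many reads as alpha1 in every strain. The ratio of alpha1 rates was 0.192 for acs2-ts over WT (exact conditional interval 0.0572 to 0.513), from 5 and 24 reads, and 0.454 for pyk1 over WT (pyk1) (0.195 to 0.98), from 10 and 25 reads. Over BY4741, which had 14 reads, it was 3.14 for sam1 (1.61 to 6.41), 2.12 for ser33 (1.02 to 4.54), 2.36 for shm2 (1.17 to 4.93), 2.42 for WT (1.2 to 5.06) and 4.85 for WT (pyk1) (2.42 to 10.1). By counting error alone, each of these 5 strains lay above BY4741. In the tests between cultures given below, HMLALPHA1 and MATALPHA1 were called against BY4741 only in WT (pyk1). Of the 528 bases of alpha1, 108 also occur at HMR, and reads of that stretch cannot be assigned to alpha1. These ratios compare the libraries, with no replicate error in them. The ratio of acs2-ts over WT stands beside a fall of most genes in the tests below. There the median log2 fold change over all genes was -1.27, and 78.1% of all genes were called lower. Whether alpha1 fell more than other genes was not tested.

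**Figure D1:**
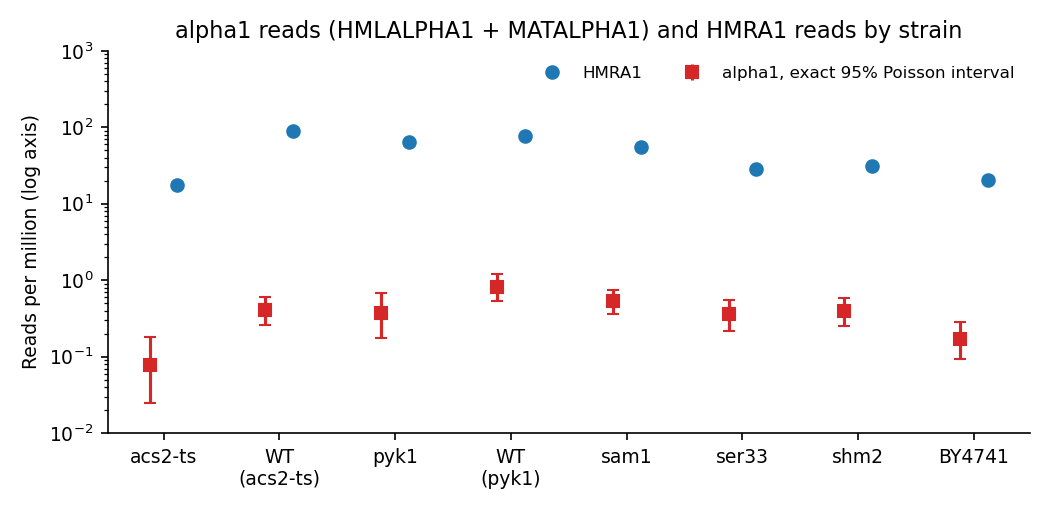
Reads per 1000000 library reads on a log axis for alpha1 (HMLALPHA1 and MATALPHA1 summed, red squares with exact 95% Poisson intervals) and HMRA1 (blue circles) in each strain, libraries summed. In every strain HMRA1 lay above alpha1 by a factor of 77 to 226. The alpha1 rate was lowest in acs2-ts at 0.078, where 78.1% of all genes were called lower than in WT.

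The downstream genes of the mating-type program, summed by list, gave the same picture. The 7 a-specific genes summed to 265 to 335 RPKM in the libraries of acs2-ts, the lowest strain, and 3065 to 3804 RPKM in BY4741. The 5 alpha-specific genes summed to 7.64 to 9.88 RPKM in acs2-ts and 27.1 to 35.5 RPKM in BY4741, and reached at most 57.1 RPKM, in WT (pyk1). The a-specific sum was above the alpha-specific sum in all 8 strains. MFA2 and MFA1, which encode the precursors of a-factor, STE2, which encodes the receptor for alpha-factor, and AGA2, which encodes the binding subunit of a-agglutinin, had the highest means of the a-specific list, at 702, 538, 312 and 252 RPKM over the 8 strains.

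Of the alpha-specific genes, SAG1 (alpha-agglutinin) and AFB1 (a-factor barrier) were the most abundant, with means of 13.4 and 11.3 RPKM, while STE3, the receptor for a-factor, and MF(ALPHA)1, the main alpha-factor gene, averaged 3.45 and 1.28 RPKM. AFB1 was at 27.9 to 29.8 RPKM in pyk1 and 29.7 to 31.1 RPKM in WT (pyk1), and at 5.44 to 6.46 RPKM in BY4741. The alpha-factor gene MF(ALPHA)1 did not exceed 2.82 RPKM in any library.

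The 11 haploid-specific genes, which a1 and alpha2 together repress in diploids, summed to 103 to 123 RPKM in acs2-ts, 388 to 469 RPKM in WT, 708 to 761 RPKM in pyk1, 652 to 661 RPKM in WT (pyk1) and 578 to 631 RPKM in BY4741. FAR1, the cyclin-dependent kinase inhibitor of the pheromone response, and GPA1, its G protein alpha subunit, had the highest means, at 73.1 and 67.2 RPKM. The haploid-specific list was detected in every strain. The lowest a-specific sum of any library, 265 RPKM, was above the highest alpha-specific sum, 57.1 RPKM.

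**Figure D2:**
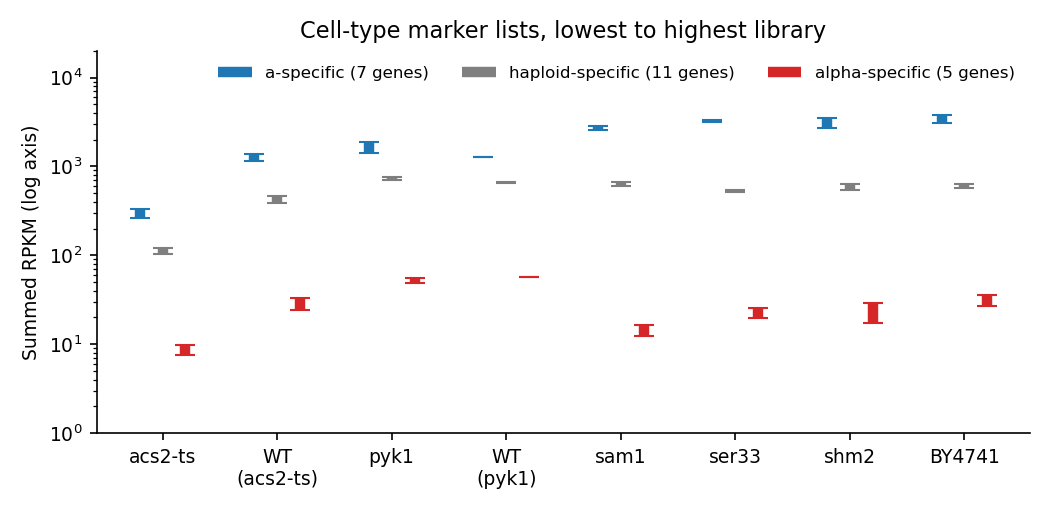
Summed RPKM (log axis) of 7 a-specific, 11 haploid-specific and 5 alpha-specific genes, each bar running from the lowest to the highest library of a strain. The a-specific sum lay between 265 and 3804 RPKM, and the alpha-specific sum between 7.64 and 57.1 RPKM, with the a-specific sum higher in all 8 strains.

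In contrast to alpha1, reads were plentiful under the names HMLALPHA2 and MATALPHA2. Over 28 libraries HMLALPHA2 took 5983 reads, MATALPHA2 took 5906 and HMRA2 took 4763. Because alpha2 and a2 share nearly all of their sequence, reads of an a2 message are also found under the alpha2 names.

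The reads were divided about evenly between the identical copies. HMLALPHA2 held 50.3% of the reads of the alpha2 pair (exact binomial 95% interval 49.4% to 51.2%). In 27 of 28 libraries the interval of this share held 50%. The exception was the second library of acs2-ts replicate 3, with 160 reads at HMLALPHA2 and 112 at MATALPHA2, a share of 58.8% (52.7% to 64.7%). The 2 counts were equal in 0 libraries, so a shared read was not simply counted at every copy. HMRA2 had fewer reads than both alpha2 copies in 26 libraries, but, with its shorter sequence, a higher RPKM than both in 27. A difference between HMLALPHA2 and MATALPHA2 is thus no measure of HML against MAT, and 2 such values are not independent.

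**Figure D3:**
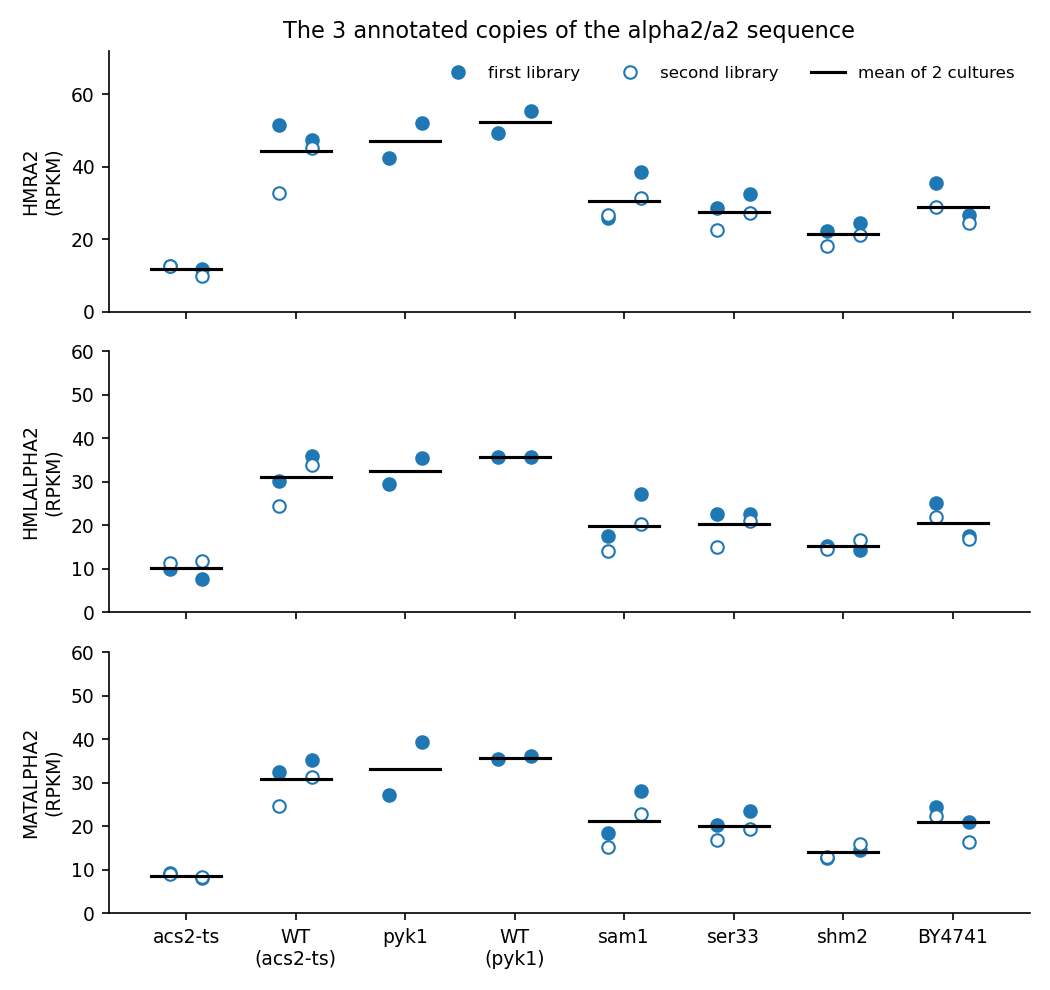
RPKM of HMRA2, HMLALPHA2 and MATALPHA2 in each library, with filled circles for the first and open circles for the second library of a culture, and lines for the mean of 2 cultures. By strain mean, acs2-ts was lowest and WT (pyk1) highest in each of the 3 panels.

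HMRA1 was the most informative gene of the group. In acs2-ts it was at 63.6 and 44.0 RPKM in the libraries of replicate 1 and 52.8 and 31.1 RPKM in those of replicate 3, and in WT at 256 and 156 RPKM in those of replicate 1 and 320.3 and 216 RPKM in those of replicate 2. In pyk1 the 2 libraries were at 126 and 213 RPKM, and in WT (pyk1) at 191 and 209 RPKM. The acs2-ts and WT libraries did not overlap, while pyk1 covered a range that included both WT (pyk1) libraries.

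In sam1 HMRA1 was at 113 and 97.2 RPKM for replicate 1 and 214 and 132 RPKM for replicate 3. It was at 84.0 and 53.4 RPKM, and 96.4 and 56.1 RPKM, in ser33 replicates 2 and 3, and at 111 and 76.0 RPKM, and 72.8 and 55.1 RPKM, in shm2 replicates 1 and 2. BY4741 had 79.0 and 54.4 RPKM in replicate 2 and 45.5 and 37.7 RPKM in replicate 3. All 4 sam1 libraries lay above all 4 BY4741 libraries, while the libraries of ser33 and shm2 overlapped with those of BY4741.

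The strain means of HMRA1 were, from high to low, 237 ± 44.1 RPKM in WT, 200 ± 12.4 in WT (pyk1), 169 ± 61.7 in pyk1, 139 ± 47.6 in sam1, 78.8 ± 20.9 in shm2, 72.5 ± 5.35 in ser33, 54.2 ± 17.7 in BY4741 and 47.9 ± 8.38 in acs2-ts (SD, n = 2 cultures each). Neighbours in this order overlapped in their cultures except sam1 with shm2 and ser33 with BY4741. WT, WT (pyk1), pyk1 and sam1 thus lay above the other 4 strains in every culture.

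**Figure D4:**
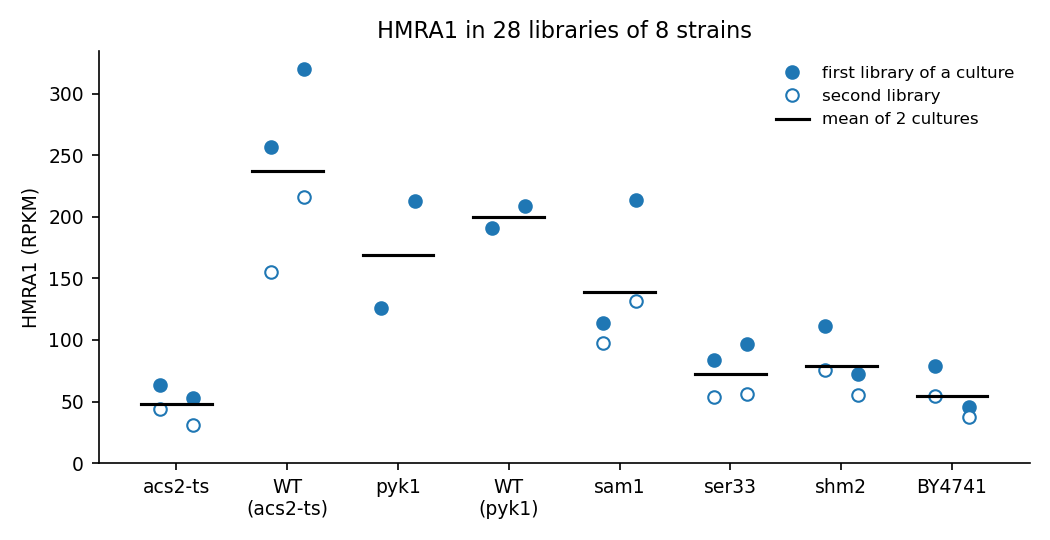
HMRA1 in RPKM in 28 libraries of 8 strains, with filled circles for the first and open circles for the second library of a culture and lines for the mean of 2 cultures. In all 12 cultures with 2 libraries the second library was the lower one, and WT lay above acs2-ts without overlap.

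The 2 libraries of a culture, labelled as technical replicates, differed in HMRA1. The second library was lower than the first in 12 of 12 cultures, by a median of -0.55 on the log2 scale (range -0.77 to -0.22), beside a median of -0.06 over 6371 genes with a mean of at least 1 RPKM. Only 1.07% of those genes had a lower median, and 15.5% were lower in all 12 cultures. The 304 genes with 300 to 400 exon bases, a length near that of HMRA1, had a median of -0.04. HMRA2 was lower in 11 of 12 cultures (median -0.23) and HMLALPHA2 and MATALPHA2 in 9 each. Since pyk1 and WT (pyk1) had first libraries alone, their levels stand beside averages of first and second libraries in the other strains.

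The question of the acs2-ts comparison was whether these genes differed in a mutant of an acetyl-CoA synthetase. All values were compared with limma on log2(RPKM + 1), with adjustment over all genes after Benjamini and Hochberg and a call at an adjusted p under 0.05. HMRA1 fell by 2.28 on the log2 scale in acs2-ts (SE 0.189, adjusted p = 0.000155). HMRA2 was at 12.7, 12.6, 11.7 and 9.93 RPKM in acs2-ts and at 51.6, 32.9, 47.4 and 45.1 RPKM in WT. It fell by 1.82 (SE 0.141, adjusted p = 0.000137). MATALPHA2 averaged 8.66 ± 0.648 RPKM in acs2-ts and 30.9 ± 3.37 RPKM in WT and fell by 1.71 (adjusted p = 0.000165). HMLALPHA2 averaged 10.2 ± 0.636 RPKM in acs2-ts and 31.1 ± 5.41 RPKM in WT and fell by 1.52 (adjusted p = 0.000329). None of these 4 genes overlapped between the strains in any library.

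These falls have to be read against the whole table, since 83.8% of all genes were called in this comparison, 78.1% lower and 5.7% higher. Of the 6 members, 5 were called, all lower. The median change over all genes was -1.27, and 89.8% of genes had cultures that did not overlap. Relative to that median HMRA1 was at -1.01, HMRA2 at -0.54, MATALPHA2 at -0.44 and HMLALPHA2 at -0.24, and 3.07% of all genes had a lower fold change than HMRA1. With the libraries rescaled by the median of ratios, HMRA1 was at -0.78 (adjusted p = 0.060) and 0 of the 6 were called, with 3595 genes called in all. HMLALPHA1 was called at -0.42 (adjusted p = 0.0146) on 1 read in acs2-ts and 12 in WT, and MATALPHA1 was at -0.32 (adjusted p = 0.0719) on 4 and 12 reads.

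Most genes of the marker lists were called lower as well, in a comparison where 78.1% of all genes were called lower. All 7 a-specific genes were called lower in acs2-ts, with a median of -2.14, as were 11 of 11 haploid-specific genes (median -1.94). So were 4 of 5 alpha-specific genes (median -1.14) and 4 of 4 SIR genes (median -1.59), beside the median of -1.27 over all genes. The alpha-specific median lay above that of all genes on this scale, where the pseudocount of 1 understates the change of low genes. SAG1, AFB1, STE3 and MF(ALPHA)1 averaged 4.84, 1.78, 0.69 and 0.57 RPKM in acs2-ts. In WT they averaged 9.29, 13.4, 3.26 and 2.40 RPKM. Whether this list fell less than other genes thus cannot be read from its median. The log2 fold changes of MFA1, AGA2, STE2 and MFA2 were -2.27, -2.30, -2.01 and -1.93. Of the 4 haploid-specific genes with the highest means, FAR1 was at -2.44, GPA1 at -1.98 and RME1 at -1.20, near the median of all genes. FUS3, the mitogen-activated kinase of the pheromone response, was at -2.67. SIR2, which encodes the histone deacetylase of silent chromatin, was at 4.56 to 6.52 RPKM in acs2-ts and 19.1 to 24.4 RPKM in WT and had a log2 fold change of -1.82, beside -1.75 for SIR4, -1.44 for SIR3 and -1.09 for SIR1. Of 10 genes that neighbour the 3 loci, 7 were called lower. The median of the 10 was -1.11, with the same limit, since low genes were among them. Among the 7 were OCA4 next to HMR (-1.82), BUD5 next to MAT (-1.60) and TAF2 on the other side of MAT (-1.20). CHA1 near HML was at -0.27 and was not called.

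In sam1, HMRA1 was the only one of the 6 that was called. It was higher by 1.33 than in BY4741 (SE 0.326, adjusted p = 0.0470), in a comparison where 16.3% of all genes were called, 8% higher and 8.29% lower. The cultures did not overlap for HMRA1, as for 66.1% of all genes, and 96.1% of all genes had a lower fold change. HMRA2, HMLALPHA2 and MATALPHA2 were at 0.08, -0.06 and -0.01 and overlapped between the strains. HMRA2 was at 26.0, 26.6, 38.5 and 31.3 RPKM in sam1 and at 35.5, 28.8, 26.7 and 24.4 RPKM in BY4741. MATALPHA1 was at 0.40 (adjusted p = 0.0586) and HMLALPHA1 at 0.30 (adjusted p = 0.210).

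The call of HMRA1 in sam1 rested on a narrow margin, and the alternative with copies summed left the HMRA1 values unchanged. It held in 7 of 18 alternatives, with log2 fold changes of 1.00 to 1.67 and adjusted p values of 0.00863 to 0.185, and was positive in each. Without BY4741 replicate 2 or 3 the value was 1.66 or 1.01, and without sam1 replicate 1 or 3 it was 1.67 or 1.00, in each case with an adjusted p of at least 0.053. In those fits 0 genes of the whole table were called, except 885 without sam1 replicate 1, beside 1161 with all cultures. Leaving out either ser33 culture, which enters only the spread, gave an adjusted p of 0.104, with 4 genes called in all.

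The balance of HMRA1 and its partner transcripts is given by library. Within a library, HMRA1 reads divided by the summed reads of HMLALPHA2, MATALPHA2 and HMRA2 gave a ratio that does not depend on library size. It was 1.34, 1.31, 1.66 and 1.31 in sam1 and 0.681, 0.538, 0.508 and 0.482 in BY4741, without overlap. It was 0.724 to 1.44 in acs2-ts and 1.38 to 1.96 in WT, which overlapped, 0.937 and 1.23 in pyk1 and 1.16 and 1.21 in WT (pyk1), 0.605 to 0.899 in ser33 and 0.746 to 1.65 in shm2. With 2 cultures per strain an exact two-sided permutation test cannot go below p = 0.333, and the ratio is given as a description with no test. The ratio moved with the library as well, and in acs2-ts replicate 3 it was 1.42 in the first and 0.724 in the second library.

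The marker lists did not rise with HMRA1 in sam1. Of all genes, 8.29% were called lower and 8% higher. These calls depended on the fit: 2 genes in all were called relative to ACT1 and 0 with only the 2 strains compared, beside 1161. Of 7 a-specific genes, 3 were called lower, among them MFA1 (-1.10) and AGA2 (-1.38), while MFA2 and STE2 were at 0.46 and 0.52 and were not called. Of 5 alpha-specific genes, 4 were called lower, among them STE3 (-1.49), MF(ALPHA)1 (-1.08) and SAG1 (-0.81). Of 11 haploid-specific genes, 1 was called, RME1, which encodes a repressor of meiosis and was higher by 0.92. Of the SIR genes 0 of 4 were called, with a median of -0.14, beside -0.03 over all genes.

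In ser33 and shm2, 0 of the 6 members were called by limma, and 0.014% of all genes were called in each comparison, while 458 and 485 genes, and 0 of the 6 members, had an unadjusted p under 0.05. HMRA1 was at 0.42 (SE 0.326, adjusted p = 0.867) in ser33 and 0.54 (SE 0.326, adjusted p = 0.702) in shm2. In shm2 HMRA2 averaged 21.5 ± 1.79 RPKM, against 28.8 ± 4.68 RPKM in BY4741, and MATALPHA2 averaged 14.0 ± 1.75 RPKM, against 21.1 ± 3.34 RPKM in BY4741. Their log2 fold changes of -0.40 and -0.55 did not pass (adjusted p = 0.685 for each). The cultures of shm2 and BY4741 did not overlap for HMRA2, HMLALPHA2, MATALPHA2 and HMLALPHA1, as was the case for 34.3% of all genes. In ser33 the cultures did not overlap for HMRA1 and MATALPHA1, as for 42.9% of all genes, and HMRA2, HMLALPHA2 and MATALPHA2 were within -0.06 and -0.01.

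In pyk1, 0 of the 6 members were called against WT (pyk1), where 0% of all genes were called by limma and 1018, with 0 of the 6 members among them, had an unadjusted p under 0.05. HMRA1 was at -0.28 (SE 0.304, adjusted p = 0.691). HMRA2 was at 42.5 and 52.0 RPKM in pyk1 and 49.3 and 55.3 RPKM in WT (pyk1), and the log2 fold changes of HMRA2, HMLALPHA2 and MATALPHA2 lay between -0.15 and -0.13. HMLALPHA1, HMLALPHA2 and MATALPHA1 had cultures that did not overlap, as for 46.6% of all genes. The alpha1 genes took 10 reads in pyk1 and 25 in WT (pyk1).

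The wild types differed from each other. In WT, HMRA1 was higher by 2.11 than in BY4741 (SE 0.253, adjusted p = 0.00303), and in WT (pyk1) by 1.92 (SE 0.253, adjusted p = 0.00247). It was called in all 17 alternatives run for WT, with values of 1.79 to 2.57, and in all 16 run for WT (pyk1), with values of 1.58 to 2.39. Of all genes, 97.6% and 94.0% had a lower fold change than HMRA1. Both comparisons share the BY4741 cultures, and the alternative with copies summed left the HMRA1 values unchanged. Strain background and preparation cannot be told apart here.

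The shared alpha2 and a2 sequence was also higher in these wild types, but by less. HMRA2, MATALPHA2 and HMLALPHA2 were at 0.59 (adjusted p = 0.0246), 0.53 (0.0347) and 0.59 (0.0517) in WT, so that 3 of 6 members were called, beside 49.3% of all genes called and 22.6% called higher. With each culture left out in turn, 1 to 5 members were called there: 1 without WT replicate 1 or 2, without either WT (pyk1) culture or without BY4741 replicate 3, and 5 without BY4741 replicate 2. The same fits called 1829 to 3410 genes of the whole table, beside 3516 with all cultures. In WT (pyk1) they were at 0.85 (adjusted p = 0.00659), 0.75 (0.0104) and 0.80 (0.0182), and all 6 members were called higher, beside 54.7% of all genes called and 39.8% called higher. The cultures of the 2 strains did not overlap for any of the 6, as for 79.5% of all genes. HMLALPHA1 and MATALPHA1 were each at 0.61 there, on 12 and 13 reads in WT (pyk1) and 6 and 8 reads in BY4741. The median over all genes was -0.07 in WT and 0.28 in WT (pyk1), and with the median of ratios as the scale 2 of 6 members were called in WT (pyk1), HMRA1 at 1.58 (adjusted p = 0.009) and MATALPHA1. Leaving out replicate 3 of WT (pyk1) left 1 member and 2336 genes of the whole table called, and leaving out replicate 1 left 3 members and 2510 genes, beside 3897 with all cultures. Without BY4741 replicate 3, 3 members and 3828 genes were called.

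**Figure D5:**
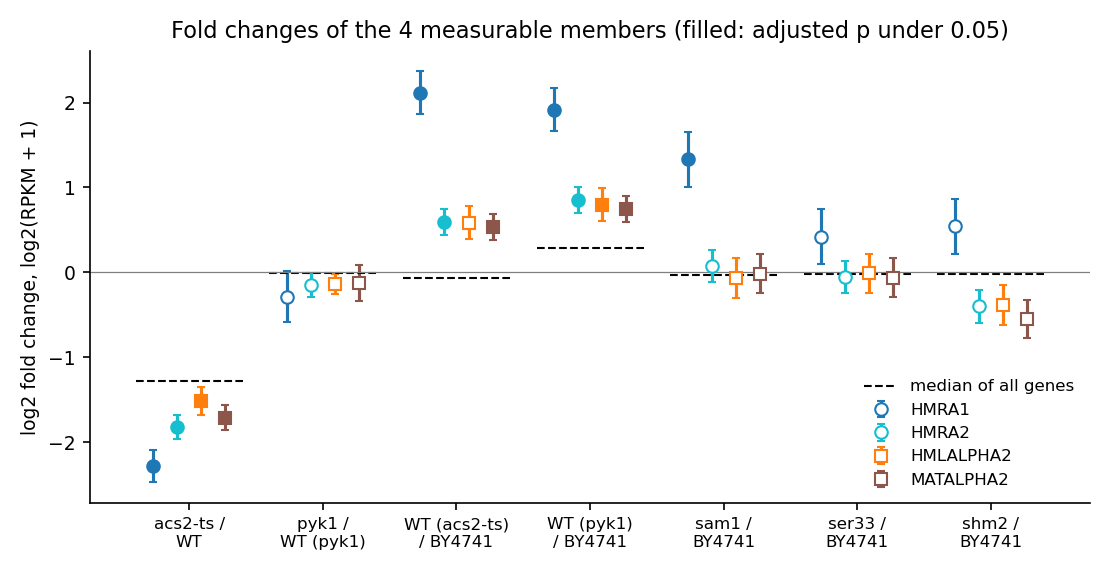
log2 fold changes with standard errors of HMRA1, HMRA2, HMLALPHA2 and MATALPHA2 in 7 comparisons, filled where the adjusted p was under 0.05, with the median of all genes as a dashed line. In acs2-ts all 4 were filled and below the median of -1.27, and in sam1 only HMRA1, at 1.33, was filled.

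While HMRA1 was higher in these wild types than in BY4741, all 7 a-specific genes were called lower in each, where 26.7% of all genes in WT and 14.9% in WT (pyk1) were called lower. In WT their median was -1.17, with MFA1 at -2.61 and AGA2 at -2.12, and in WT (pyk1) it was -1.05, with MFA1 at -2.04 and AGA2 at -2.22. Of 5 alpha-specific genes, 1 was called higher in WT, AFB1 (1.07), and 1 lower, SAG1 (-1.10). In WT (pyk1) 2 were called higher, AFB1 (2.22) and STE3 (1.55), and 1 lower, SAG1 (-0.51). Of all genes, 22.6% were called higher in WT and 39.8% in WT (pyk1), so the counts called higher were near the share of all genes. The a-specific genes are expressed by default in a cells and a1 is not known to act on them, and the levels of the list and of HMRA1 are given side by side with no test of a link. Of the 4 SIR genes, 1 was called higher in WT, SIR2 (0.62), and 2 lower, SIR4 (-0.72) and SIR3 (-0.44). In WT (pyk1) 2 were called higher, SIR2 (1.24) and SIR1 (0.72), and 0 lower. The SIR counts stand beside the same shares of all genes.

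The neighbouring gene YCR041W (chrIII:200911-201243, plus strand) was chosen after its values were seen. It overlaps the last 59 bases of MATALPHA1 and runs past the cassette, and 267 of its 333 bases are also at HML and 154 at HMR, so that part of its reads can come from any of the 3 loci. It was at 2.67 to 3.50 RPKM in acs2-ts and 9.95 to 11.9 RPKM in WT, at 5.16 to 11.6 RPKM in sam1, 5.69 and 5.88 RPKM in WT (pyk1), and 2.15 to 3.86 RPKM in BY4741. Its log2 fold change was -1.53 in acs2-ts (adjusted p = 0.000191), 1.12 in sam1 (0.0456), 1.52 in WT against BY4741 (0.00160) and 0.73 in WT (pyk1) (0.00735). YCR041W was called in the 4 comparisons in which HMRA1 was called, with the same sign in each. The libraries of these strains held 10 to 68 of its reads, and 83.8%, 16.3%, 49.3% and 54.7% of all genes were called there. In pyk1, where HMRA1 was at -0.28, YCR041W was at 0.55, and neither was called. It was at 0.20 in ser33 and 0.57 in shm2, not called, beside 0.42 and 0.54 for HMRA1. Since the gene was chosen by its values, its likeness to HMRA1 is no test.

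Across the 16 cultures, the genes most like HMLALPHA2, MATALPHA2 and HMRA2 were these 3 genes themselves, with Pearson r of 0.984 to 0.992 on log2(RPKM + 1), a likeness that their shared reads produce in part. ATG10, which encodes an enzyme of autophagy, followed for HMLALPHA2 (r = 0.970) and MATALPHA2 (r = 0.971), and HNT3 stood second for HMRA2 (r = 0.985). For HMRA1 the closest genes were SFT1, which encodes a SNARE protein of the Golgi (r = 0.968), the small nucleolar RNA gene snR71 (r = 0.954) and YPR170W-B (r = 0.946). None of the 3 was another mating-type gene. The 16 cultures come from 8 strains and include the shift in acs2-ts, so these correlations are descriptions. HMLALPHA1 and MATALPHA1 were under 1 RPKM on average and were not searched.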

How the data were processed

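RNA-seq was performed by the authors on 28 libraries from 8 strains: total RNA was purified with a column kit, ribosomal RNA was removed and stranded Illumina libraries were made. The submitters' processing notes name CASAVA 1.8.2, TopHat2 2.0.13, edgeR with no version, and sacCer3, which is R64. How reads with several matches were counted is not given in the sources used here. The authors deposited 1 table of RPKM for 7125 genes, and its 32 columns without values were not used.

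Library sizes were recovered from the steps of low RPKM values over 5766 genes with 1 exon (99.3% to 100% of values within 0.1 of a whole read), and member reads followed to within 0.00806 of a whole number. Positions, exon lengths and sequences came from the RefSeq copy of R64. Libraries of a culture were averaged on the log2(RPKM + 1) scale, so n = 2. Two-sided tests were made with limma 3.58.1 (R 4.3.3; linear models with a mean-variance trend), with Benjamini-Hochberg adjustment over 7125 genes: acs2-ts with WT, pyk1 with WT (pyk1), sam1, ser33 and shm2 with BY4741 in 1 model, and the 3 wild types in 1 model. The pseudocount understates the change of low genes. The fitting step was tested on simulated data. Python 3.11.15 was used otherwise.

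The text names the 6 members, of each marker list up to 4 genes with the highest mean RPKM over all strains, and for each member with a mean of at least 1 RPKM the 3 genes with the highest Pearson r. The members and lists were chosen with earlier results of these data known. Alternatives were a pseudocount of 0.1, a minimum mean of 1 RPKM, the first or second libraries only, median-of-ratios scaling, values relative to ACT1, all 8 strains or only the 2 strains compared in the model, copies summed, a replicate block, and each culture left out. The labels do not say how cultures were separated, so p-values measure the spread between these cultures.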

Additional observations from a re-analysis of the deposited data

Results flagged for a closer look

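The 36 sets of 4 libraries (6 genes in the 6 strains with 2 libraries per culture) were searched for a library far from the others by Dixon's criterion. HMLALPHA1 in acs2-ts was found, with 0.13 RPKM, that is 1 read, in the first library of replicate 1 and 0 in the other 3. Chance flags about 1 in 20 sets of independent, continuous values. That rate does not hold for counts of 1 and 0, where a single read is enough to be found, and the 4 libraries come from 2 cultures.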

How the results depend on the processing

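In the 4 comparisons with a member called, 38 of 64 alternatives left the number of members called within 1.5 times its value: 12 of 13 in acs2-ts, 7 of 18 in sam1, 7 of 17 in WT and 12 of 16 in WT (pyk1) against BY4741. The calls of HMRA1 in WT and WT (pyk1) against BY4741 held in each alternative run. In acs2-ts 0 members were called with median-of-ratios scaling, where 3595 genes were called in all, beside 5971. In sam1 0 were called with a pseudocount of 0.1 (1038 genes in all), with first libraries only (330), relative to ACT1 (2) and with only the 2 strains compared (0), and 1 with all 8 strains in 1 model (2845) or second libraries only (424), beside 1161 genes. In WT against BY4741 1 member was called relative to ACT1 (1493 genes in all, beside 3516), with only the 2 strains compared and with second libraries only, and in WT (pyk1) against BY4741 2 were called with median-of-ratios scaling. In ser33 and shm2 0 members were called in every alternative, and at most 20 and 7 genes; in pyk1 0 members and at most 26 genes, with the pseudocount of 0.1. With copies summed, each copy stood for its sum, and HMRA1, which has no copy, kept its values. That alternative therefore says little about the calls of HMRA1. The second libraries, the crossed block and the blocks for acs2-ts and the wild types were chosen after seeing the data. HMLALPHA1 and MATALPHA1 did not reach the minimum mean of 1 RPKM and have no value there. The cause of these changes was not tested.

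With each culture left out in turn, the number of members called was 5 to 6 in acs2-ts (5721 to 6054 genes in all), 0 to 1 in sam1 (0 to 1690 genes, beside 1161), 0 in ser33, shm2 and pyk1 (at most 1 gene), 1 to 5 in WT against BY4741 (1829 to 3410 genes, beside 3516) and 1 to 6 in WT (pyk1) against BY4741 (2336 to 3828 genes, beside 3897). Uncalled values changed sign. Against BY4741 they ranged from -0.34 to 0.21 (HMLALPHA2), -0.30 to 0.27 (MATALPHA2) and -0.12 to 0.27 (HMRA2) in sam1, and from -0.22 to 0.20, -0.22 to 0.10 and -0.22 to 0.10 for the same genes in ser33. In pyk1 they ranged from -0.38 to 0.13 for MATALPHA2 and -0.66 to 0.093 for HMRA1. With first libraries only, sam1 gave 0.053 for HMLALPHA2 and 0.0083 for MATALPHA2, and ser33 gave -0.00078 for HMLALPHA1 and 0.095 for HMLALPHA2. Relative to ACT1, MATALPHA2 in sam1 was at 0.030, and with second libraries only MATALPHA1 in ser33 was at -0.034.

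The replicate numbers did not pair the cultures alike in every strain: deviations of same-numbered cultures correlated at -0.19 (BY4741 and ser33), 0.03 (BY4741 and sam1) and 0.71 (BY4741 and shm2). With the replicate block, 0 members and 0 genes were called in sam1, ser33 and shm2, and HMLALPHA2 and MATALPHA2 in sam1 were at 0.081 and 0.18. With the numbers of ser33 crossed, 0 members and 0 genes were called. With the replicate block in the model of the 3 wild types, 1 member was called in WT (2659 genes in all) and 4 in WT (pyk1) against BY4741 (2797), where same-numbered cultures correlated at -0.12 to 0.072. The second WT culture is number 2 in its title, used here, and number 3 in its description. With the number of the description the replicate block called 5 members in acs2-ts (6010 genes in all), 4 in WT and 6 in WT (pyk1), and cultures of acs2-ts and WT correlated at 0.12. No paired analysis was possible for pyk1, or for acs2-ts by the title numbers, because a block leaves no residual degrees of freedom.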
